A study of Mus musculus with 8 samples.

Results

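Cytosine methylation in RNA was measured at 448 single sites that lie inside the spans of 12 long noncoding RNA (lncRNA) genes, out of 8492 sites in the whole deposited table. The members were chosen by annotation alone: a site belonged if its position fell between the first and last base of a RefSeq gene with the biotype lncRNA on mouse build GRCm38, patch 6. They made up 5.28% of the listed sites. The cells were bone marrow derived mast cells of C57BL/6 mice, grown from femur marrow with IL-3 and SCF and positive for FcεRI and c-Kit. Per the labels there were 4 libraries from wild-type cells and 4 from Tet2-/- cells, each as 2 biological replicates with 2 technical replicates. The levels analysed here come from the 4 Tet2-/- libraries, so no value is a difference between genotypes. The title line of the table calls its sites specific to the Tet2-deficient group, a choice the authors made on these same samples. Nothing in the labels says how the Tet2 allele was made or whether marrow of several animals was pooled. No marker expression was analysed, so the labelled cell type was not checked here.

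A lncRNA is a long transcript without a functional open reading frame. Many are spliced and polyadenylated like mRNA, stay in the nucleus and are present at low levels, and some act on chromatin or as scaffolds for proteins. 5-Methylcytosine is placed on RNA by methyltransferases such as the NSUN family, and TET enzymes oxidise it. Bisulfite turns unmodified cytosine into uracil, and a level here means the percentage of reads in which a cytosine remained. A cytosine that escaped conversion counts in that percentage too. The lowest level listed for any site and library was 10% and the highest 100%, so the table says nothing of cytosines below that floor. Read numbers per site were not analysed here. Depth is therefore unknown, and levels carry no counting interval.

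Most of these genes are known only as transcript models. In RefSeq, 2 of the 12 have curated transcripts, 4933406I18Rik and C030034L19Rik, and the other 10 rest on predicted transcripts. No function is stated here for any of them. They lie on 6 chromosomes, 5 of them on chromosome 7. Positions below are on GRCm38. Exons and introns were not analysed, so a site inside a span need not lie in a spliced transcript, and the table gives no strand, so a read may come from either one.

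The sequence around the sites was not used here. The only sequence at hand for these genes is that of the start windows in RefSeq (GRCm38.p6), which cover 250 bases before and 50 bases after an annotated transcript start. Such windows existed for 9 of the 12 genes, 20 windows in all, and they held 0 listed sites. One of them had one of the 448 sites within 1 kb: a start of Gm45086 on the minus strand, chr7:48736330-48736629. It is shown because, among the windows of these lncRNA genes, it lies nearest to any of the 448 sites, with the transcribed bases in capitals. Windows of protein-coding genes were not considered for this choice.

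Gm45086 start window: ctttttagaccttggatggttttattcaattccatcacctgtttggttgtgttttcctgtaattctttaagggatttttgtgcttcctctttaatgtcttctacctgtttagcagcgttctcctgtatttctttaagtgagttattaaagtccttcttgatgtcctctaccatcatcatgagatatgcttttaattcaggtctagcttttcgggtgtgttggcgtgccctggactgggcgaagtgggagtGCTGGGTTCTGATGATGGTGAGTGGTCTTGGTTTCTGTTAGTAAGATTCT

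That window holds 52 C and 71 G on the printed strand, among them 4 CG steps, and none of them is listed. The nearest listed site, at 48736771, lies 142 bases beyond the window and 392 bases upstream of the transcript start. In the other windows the nearest listed site was at least 1683 bases away.

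Across the 448 sites, the levels in the 2 libraries of biological replicate 1 averaged 39.1% and 37.7%, and those of replicate 2 averaged 39.9% and 40.9%. The mean over both biological replicates was 39.4% ± 1.43 (SD, n = 2). Both libraries of replicate 2 lay above both of replicate 1, by little. The median of the site means was 35.4%, and the middle 50% of sites lay between 27.8% and 46.7%. Sites ran from 12.4% to 96.4%. All 4 libraries read 50% or more at 50 sites (11.2%), against 33.6% of all listed sites. At 8 sites (1.79%) they were all below 20%, against 2.45% of all listed sites. No lncRNA site stood at 100% in every library, whereas 71 sites of the whole table did.

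Sites of lncRNA genes were lower than the other listed sites. The other 8044 sites averaged 52.4% ± 0.0833 (SD, n = 2), which put the lncRNA sites 13.0 points lower (SD 1.35, n = 2 biological replicates). Within single libraries the difference was -15.5 and -12.5 points in replicate 1 and -10.5 and -13.6 points in replicate 2, so all 4 libraries had the same direction. An exact two-sided sign-flip permutation test over the 2 biological replicates gave p = 0.5, the smallest value it can give with n = 2, so the design cannot pass a threshold of 0.05. Sites in protein-coding gene spans averaged 53.1% and sites outside all gene spans 46.9%. The difference was -6.28 points once clustered sites, which have a listed neighbour at 10 bases or less, were left out, and -9.40 points with each region counted once, a region being sites up to 500 bases apart. The direction was the same in each case, and the size depended on how sites were weighted.

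**Figure D1:**
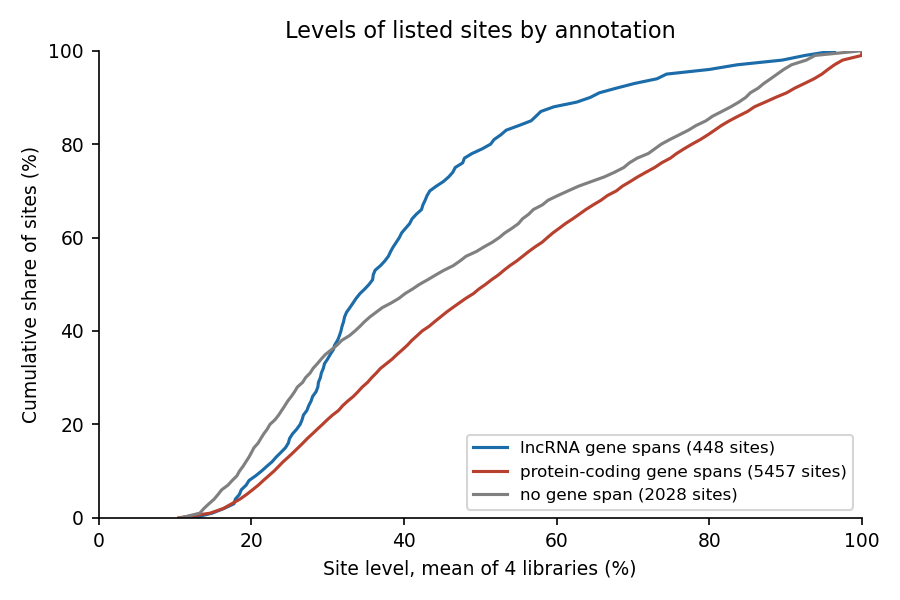
Cumulative share of listed sites (vertical axis, %) against the mean level of a site over the 4 libraries (horizontal axis, %), for sites in lncRNA gene spans, in protein-coding gene spans and in no gene span. The lncRNA curve climbs steeply between 27.8% and 46.7%, the middle 50% of its sites, and stays above the protein-coding curve over most of the axis.

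Few lncRNA genes had any listed site. The annotation holds 12731 lncRNA genes, of which 12 (0.0943%) had one, while 96 of 21900 protein-coding genes (0.438%) did. Per megabase of gene span, counted once where spans overlap, there were 2.03 listed sites in lncRNA genes and 5.29 in protein-coding genes. Expression was not analysed here, and the title line calls the listed sites specific to the Tet2-deficient group. Genes that lack methylation, genes that lack reads and genes methylated in both genotypes therefore cannot be told apart. Well-studied noncoding RNAs were looked up by name. Of 20 chromatin and nuclear lncRNAs, all 20 were matched to the annotation and 0 had a listed site, among them Malat1 and Neat1, which are abundant in the nucleus, and Xist, which silences an X chromosome. The same count of 0 was found for 15 snoRNA host genes such as Gas5, Snhg1 and Snhg3, and for 15 matched lncRNAs of blood and immune cells such as Mir155hg, Mir17hg and Mir22hg. A further list of 7 noncoding RNAs named for carrying 5-methylcytosine, including Hotair and the RNA component of RNase P, Rpph1, also had 0 sites. Of these 7, 3 have the biotype lncRNA. With only 0.0943% of lncRNA genes holding a site, lists this short would most likely hold none. No conclusion is drawn from these counts of 0.

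The 12 genes shared the sites very unevenly. 4933406I18Rik held 198 sites and Gm36408 held 142, together 75.9% of the 448. Gm34048 followed with 48 sites, C030034L19Rik and Gm28068 with 17 each, and Gm38722 with 10. The other 6 genes had between 1 and 6 sites. Gm42373 and Gm32772 overlap on chromosome 7 and share the same 2 sites, so there are 11 distinct sets of sites. The mean over these 11 sets was 35.2%, with each gene counted once.

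Levels of the genes ran from 60.0% to 12.7%. C030034L19Rik was the only one of the 12 above the mean of all listed sites (51.7%), and the other 11 lay below it. This held for means over the libraries but not in each library. In technical replicate 1 of biological replicate 2, C030034L19Rik stood at 47.6%, Gm34048 at 47.0% and all listed sites at 49.9%. In technical replicate 2 of biological replicate 1, Gm37292 stood at 54.6% and all listed sites at 49.5%. The gap between C030034L19Rik and the next gene, Gm34048, was 16.2 points, larger than the SD of either. Gm34048, Gm37292 and 4933406I18Rik followed at 43.9%, 43.5% and 41.2%, and neighbours among these 3 did not differ beyond their SD. 4933406I18Rik lay 5.89 points above Gm36408, more than the larger SD of 2.98. That order depended on which sites were kept and how they were weighted. Without its highest stretch, described below, 4933406I18Rik stood at 33.4%, below Gm36408 at 35.3%. Counting regions once gave 31.5% against 39.1%, and leaving out clustered sites gave 25.2% against 39.8%. The order held for medians, at 33.9% against 33.0%, and with either replicate left out. Among sites where no library read below 20% it also held, at 52.6% against 39.6%. Gm36408, Gm28068, the Gm42373 and Gm32772 pair and Gm31751 formed a group between 35.3% and 31.8% in which no neighbour differed beyond its SD. Gm45086 at 28.2%, Gm38722 at 25.3% and Gm38740 at 12.7% were each separated from the gene above by more than the larger SD. The SD of Gm45086, over 2 sites, was only 0.114, though its libraries ranged over 11.9 points. With the last number of the column names taken as the biological replicate, its SD was 3.89. That is more than its gaps of 3.60 points to Gm31751 and 2.93 points to Gm38722. An SD over 2 biological replicates is itself imprecise, and Gm38740 rests on a single site.

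**Figure D2:**
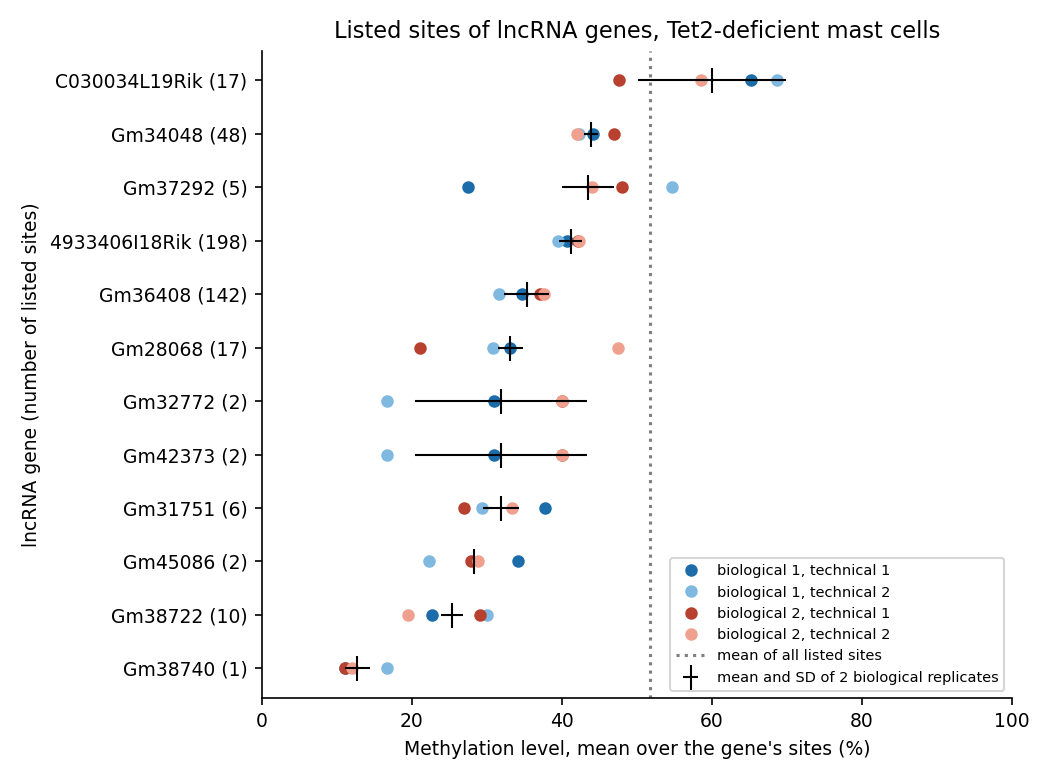
Mean level over the listed sites of each lncRNA gene (horizontal axis, %), with the number of sites in brackets. Coloured points are the 4 Tet2-deficient libraries, the black tick and bar are the mean and SD of 2 biological replicates, and the dotted line marks the mean of all listed sites (51.7%); C030034L19Rik alone has its mean to the right of the line.

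4933406I18Rik spans 99683 bases of chromosome 7, from 114315479 to 114415161. It overlaps no other annotated gene and ends 0.061 kb before Pde3b, a phosphodiesterase that breaks down cyclic AMP. Psma1, a proteasome subunit, lies 39.4 kb to its other side. Its level was 40.7% and 39.5% in the libraries of replicate 1 and 42.2% and 42.3% in those of replicate 2, with a mean of 41.2% ± 1.54 (SD, n = 2). The replicates did not overlap, although the whole range was only 2.80 points. The 198 sites fell into 5 regions between 114369142 and 114392405, which is 23.3% of the span, with no listed site in the first 53.7 kb.

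The region with the most sites, from 114390123 to 114392405, had 143 sites in 2283 bases, at 47.0% ± 3.25 (SD, n = 2). Within it a block of high levels lay between lower ones. When sites up to 100 bases apart were joined into stretches, the first stretch of 49 sites stood at 33.4% ± 6.50. The next, from 114390790 to 114390928, had 34 sites in 139 bases at 78.9% ± 9.51 (SD, n = 2 for both). It was 72.8% and 71.6% in the libraries of replicate 1 and 81.8% and 89.4% in those of replicate 2, without overlap. It held 28 of the 32 sites of this gene at 50% or more in every library. The highest means, 96.4%, stood at 114390811 and 114390814, where 3 of the 4 libraries read 100% and the fourth 85.7%. Beyond it came 5 sites at 67.3%, then 34 sites at 38.3% and 21 sites at 36.1%. Without the stretch of 34 sites, which was chosen after its values were seen, the gene stood at 33.4% ± 0.108 (SD, n = 2) and all lncRNA sites at 36.2% ± 0.768 (SD, n = 2).

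In the stretch of 34 sites from 114391783 to 114392047 the replicates did not overlap. Its levels were 35.3% and 24.8% in replicate 1 and 46.4% and 46.6% in replicate 2. At 24 of these sites both libraries of replicate 2 lay above both of replicate 1, and at 2 the reverse held. Over all listed sites, replicate 2 was the higher one without overlap at 15.7% of sites and replicate 1 at 14.7%.

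In the region from 114388145 to 114389030 the order was the opposite. Its 40 sites stood at 27.8% and 24.0% in replicate 1 and at 19.8% and 21.3% in replicate 2, a mean of 23.2% ± 3.78 (SD, n = 2). At 16 of the 40 sites replicate 1 was higher without overlap, and at 2 replicate 2 was, beside 14.7% and 15.7% over all listed sites. The region of 6 sites from 114369142 to 114369212 was 40.3% and 29.6% in replicate 1 and 52.9% and 50% in replicate 2. The region of 8 sites from 114382822 to 114383280 had one high library, with 51.7% and 19.5% in replicate 1 and 30.5% and 14.9% in replicate 2, so its technical replicates differed more than its biological means. A lone site at 114386386 averaged 15.1% ± 4.68 (SD, n = 2). The close agreement of this gene's libraries is a sum over regions in which the replicates differed in opposite directions.

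**Figure D3:**
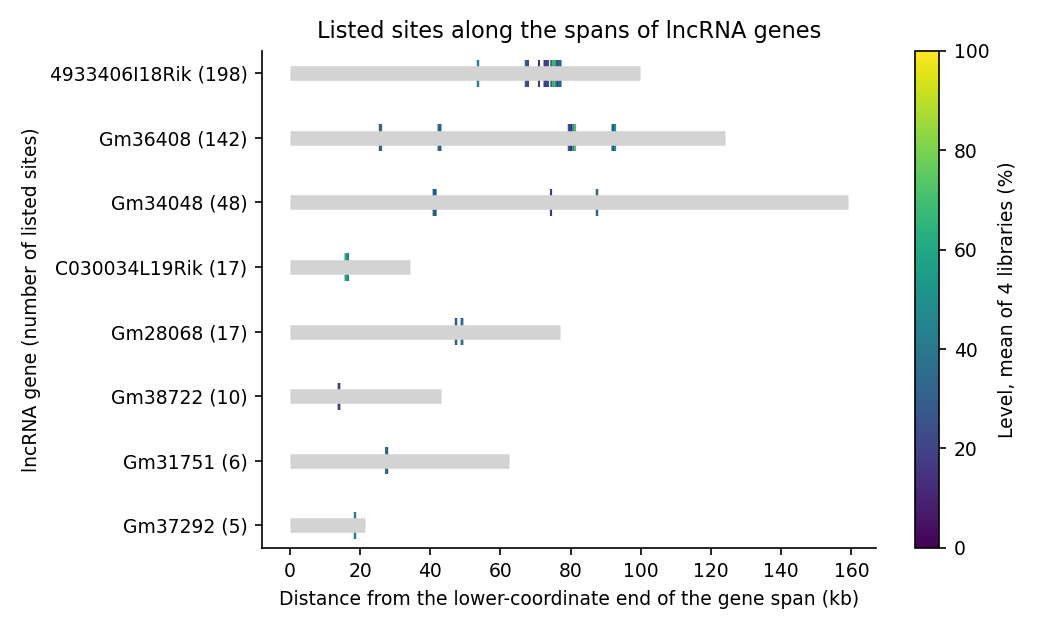
Listed sites of the 8 lncRNA genes with 5 or more sites, drawn along the gene span (grey bar) by distance in kb from its lower-coordinate end; each tick is a site, coloured by its mean level over the 4 libraries (%). In every gene the sites gather in a few narrow groups, and those of 4933406I18Rik lie within 23.3% of its span.

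Gm36408 spans 123926 bases of chromosome 6, from 66148439 to 66272364, on the minus strand, and overlaps no annotated gene. Its neighbours are far away: the nearest protein-coding genes are 4930544G11Rik at 194 kb on one side and Mad2l1, which encodes a spindle checkpoint protein, at 263 kb on the other. The level was 34.7% and 31.6% in replicate 1 and 37.1% and 37.7% in replicate 2, a mean of 35.3% ± 2.98 (SD, n = 2). Both libraries of replicate 2 were above both of replicate 1. At 30 sites (21.1%) replicate 2 was higher without overlap and at 8 (5.63%) replicate 1 was, beside 15.7% and 14.7% over all listed sites. Only 1 of its 142 sites reached 50% or more in every library.

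The sites of Gm36408 lay in 5 regions. The largest, from 66228076 to 66228599, had 69 sites in 524 bases at 32.3% ± 5.18 (SD, n = 2). Its libraries stood at 30.9% and 26.4% in replicate 1 and at 41.1% and 30.8% in replicate 2, so the replicates overlapped. The region of 28 sites from 66190820 to 66191235 stood at 34.4% and 29.2% in replicate 1 and at 26.2% and 55.2% in replicate 2, so the technical replicates of replicate 2 held the lowest and the highest value. The 34 sites from 66240510 to 66240994 ran the other way, at 42.8% and 45.6% in replicate 1 and 37.6% and 36.1% in replicate 2. A group of 8 sites from 66174210 to 66174338 was low, at 26.0% ± 4.18, and 3 sites from 66229503 to 66229548 were high, at 60.3% ± 10.9 (SD, n = 2 for both). The site at 66229548 had the highest mean of the gene, 70.3%, and that at 66228599 the lowest, 12.4%.

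Gm36408 sits at the edge of a dense window of listed sites on chromosome 6. A further 1035 sites lay within 200 kb of the span, all on its lower-coordinate side, between 66016186 and 66142759. They lay in no gene span and averaged 47.5% ± 0.0488, while the 142 sites inside Gm36408 averaged 35.3% ± 2.98 (SD, n = 2 for both). The sites inside the span were lower than those outside it in each of the 4 libraries. The difference was not tested. Only one other gene, Gm37292, had listed sites outside its span within 200 kb: 6 sites, the nearest 0.753 kb away.

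**Figure D4:**
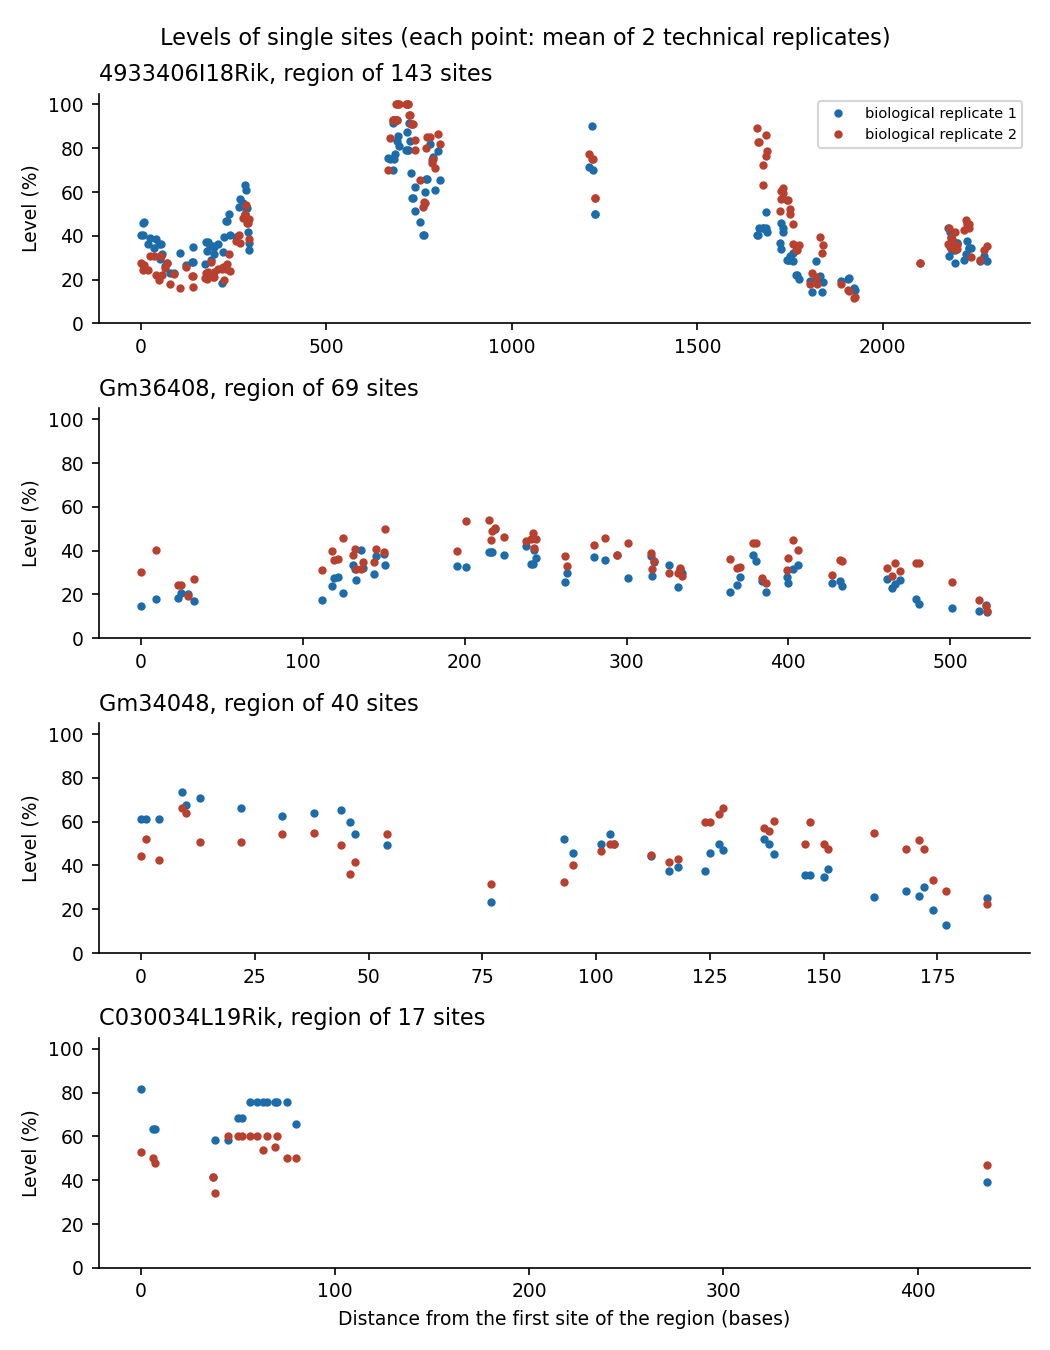
Levels of single sites (vertical axis, %) against distance from the first site of the region in bases (horizontal axis), in the largest region of 4933406I18Rik, Gm36408, Gm34048 and C030034L19Rik; each point is the mean of 2 technical replicates of a biological replicate. The block of 34 sites at 78.9% stands out in 4933406I18Rik, and in Gm34048 replicate 1 is higher at the left end and replicate 2 at the right end.

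Gm34048 spans 159106 bases of chromosome 3, from 62604829 to 62763934, on the plus strand. Its span overlaps that of Gpr149, an orphan receptor gene, but none of its listed sites lies inside Gpr149. The level was 44.2% and 42.3% in replicate 1 and 47.0% and 42.0% in replicate 2, a mean of 43.9% ± 0.886 (SD, n = 2), with overlap. Of its 48 sites, 40 lay in 187 bases from 62645941 to 62646127, or 21.4 sites per 100 bases, the densest of the 9 lncRNA regions with 10 or more sites. The region averaged 47.6% ± 1.82 (SD, n = 2), and its highest site, at 62645950, averaged 70.0%.

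The replicate means of this region differed in opposite directions in its first and last 20 sites, a split that was not planned. In the first 20 sites the libraries stood at 62.5% and 51.1% in replicate 1 and at 53.6% and 41.9% in replicate 2, so the replicates overlapped. In the last 20 sites they stood at 32.9% and 38.7% in replicate 1 and at 53.2% and 46.9% in replicate 2, without overlap. Replicate 1 was higher without overlap at 7 of the 40 sites, all in the first 20, and replicate 2 at 11, all in the last 20. The shares over all listed sites were 14.7% and 15.7%. All 9 lncRNA regions with 10 or more sites were split in this way, and the change of sign was not particular to Gm34048. Replicate 2 minus replicate 1 was -12.8 and 9.92 points in the 2 parts of the Gm28068 region. It was -1.47 and 10.6 points in the 143-site region of 4933406I18Rik, and 0.00962 and -4.10 points in Gm38722. In the other regions the sign was the same in both parts. The remaining sites of Gm34048 were low: 2 adjacent positions, 62679281 and 62679282, averaged 16.3% ± 6.66, and 6 sites from 62692205 to 62692373 averaged 28.1% ± 2.83 (SD, n = 2 for both).

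C030034L19Rik had the highest level of the 12 genes. It spans 34214 bases of chromosome 3, from 9403020 to 9437233, and overlaps the span of the zinc finger gene Zfp704, which holds none of its sites. All 17 sites lay between 9419070 and 9419506, 16 of them within 81 bases. The level was 65.3% and 68.7% in replicate 1 and 47.6% and 58.5% in replicate 2, a mean of 60.0% ± 9.87 (SD, n = 2). The replicates did not overlap, and this was the widest gap between replicates among the genes with 10 or more sites. At 12 of 17 sites (70.6%) replicate 1 was higher without overlap, and at 0 sites replicate 2 was, beside 14.7% and 15.7% over all listed sites. These sites lie close together and are not independent. At 11 sites every library read 50% or more. With the last number of the column names taken as the biological replicate instead, the SD was 5.09.

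Gm28068 lies among the Ly6 genes of chromosome 15, which encode surface antigens of blood cells. Its span, 74966931 to 75043885 on the plus strand, overlaps Ly6a and Ly6i and ends 0.133 kb before Ly6c1. Its 17 sites, none in another gene span, lay in 2 groups, 6 sites from 75014160 to 75014198 and 11 sites from 75015872 to 75016004. The level was 33.1% and 30.8% in replicate 1 but 21.1% and 47.5% in replicate 2, so the technical replicates of replicate 2 held both the lowest and the highest value. The mean of 33.1% ± 1.65 (SD, n = 2) hides that range of 26.4 points. The single-site means differed little, from 27.9% to 38.9%. At 11 of 17 sites (64.7%) the 4 libraries spanned more than 30 points, against 30.6% of all listed sites.

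Gm38722, on chromosome 5 between Cux1, a homeobox transcription factor gene, and Myl10, a myosin light chain gene, spans 136632332 to 136675425. Its 10 sites lay within 55 bases, 136646377 to 136646431, and 9 of them within 14 bases. The level was 22.7% and 30% in replicate 1 and 29.1% and 19.5% in replicate 2, a mean of 25.3% ± 1.45 (SD, n = 2). The replicates overlapped, and no site spanned more than 30 points.

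The remaining genes had few sites. Gm31751, on chromosome 9 from 7557172 to 7619634, overlaps the spans of the matrix metalloproteinases Mmp8 and Mmp27, though its sites do not. Its 6 sites stood at 37.8%, 29.3%, 26.9% and 33.3% in the 4 libraries, a mean of 31.8% ± 2.40 (SD, n = 2). One site, 7584543, averaged 45.8%, and the 5 others, 215 or more bases away, between 27.1% and 31.3%. Gm37292, on chromosome 7 from 31207088 to 31228454, had 5 sites within 20 bases at 27.5% and 54.6% in replicate 1 and 48% and 44% in replicate 2. Its mean was 43.5% ± 3.47 (SD, n = 2), and the technical replicates of replicate 1 held the lowest and the highest library.

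The 2 sites shared by Gm42373 and Gm32772, at 17293965 and 17293973 on chromosome 7, lie in a stretch where both spans overlap. RefSeq places Gm42373 on the plus and Gm32772 on the minus strand, so the sites cannot be assigned to either gene. They averaged 31.0% and 16.7% in replicate 1 and 40% in both libraries of replicate 2, without overlap, with a mean of 31.9% ± 11.4 (SD, n = 2). Gm45086, on chromosome 7 with Zdhhc13 at 40.8 kb on one side and the Mas-related receptor gene Mrgprb3 at 76.3 kb on the other, had 2 isolated sites. The one at 48736771, next to the start window printed above, averaged 33.7% ± 3.44, and that at 48746459 averaged 22.8% ± 3.66 (SD, n = 2 for both). Gm38740, on chromosome 5, had a single site, 145280591, at 11.1% and 16.7% in replicate 1 and 11.1% and 12% in replicate 2. It also lies 140 bases inside the plus-strand protein-coding gene Zscan25, a zinc finger gene, so it may belong to that gene. This was the only lncRNA site inside a span of another biotype.

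Dense spacing was common to the larger genes. A neighbour at 10 bases or less was listed for 413 of the 448 sites (92.2%), against 93.7% of the whole table, and 176 (39.3%) were next to another listed position, against 40.2%. Joined at up to 500 bases, they formed 23 regions that covered 6588 bases. Most sites (392, or 87.5%) lay in the 9 regions with 10 or more. These had a median density of 7.01 sites per 100 bases, while the 146 such regions of the whole table had a median of 11.1. The 35 isolated sites averaged 32.5% ± 1.18 and the clustered ones 39.98% ± 1.45 (SD, n = 2 for both). Over all listed sites, isolated ones were lower as well, at 38.3% against 52.6% for clustered ones. All 4 libraries read 50% or more at 0 of the 35 isolated lncRNA sites and at 80 of all 536 isolated sites (14.9%). The longest run of consecutive listed positions was 5, in 4933406I18Rik.

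Neighbouring sites often carried the very same value. For successive lncRNA sites up to 10 bases apart, the levels were equal (within 1e-06 points) in 41.2% of comparisons within a library, against 38.5% over all listed sites, and equal in all 4 libraries for 17 of 334 pairs (5.09%, against 6.61%). The share within a library was 75% in Gm28068, 67.9% in C030034L19Rik and 31.3% in Gm34048. Sites this close can lie on the same reads, so the sites of a gene are not independent measurements.

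**Figure D5:**
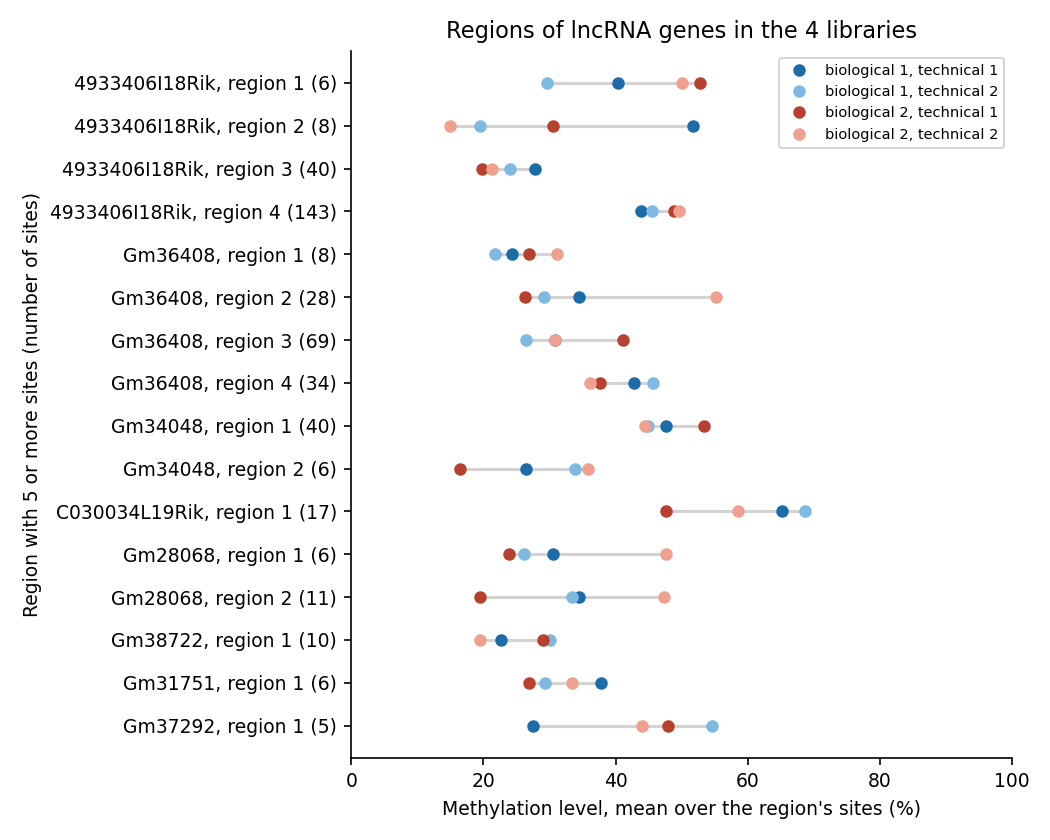
Mean level of each lncRNA region with 5 or more sites (horizontal axis, %) in the 4 libraries (coloured points, joined by a grey line), with the regions shown numbered along each gene by position and the number of sites in brackets. Region 2 of 4933406I18Rik has the widest spread of those shown, 36.8 points. Region 2 of Gm36408 shows a library at 55.2% while the others lie between 26.2% and 34.4%. The Gm28068 and Gm37292 regions spread over 23.7 to 27.8 points.

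At 158 of 448 sites (35.3%) both libraries of one replicate lay above both of the other, beside 30.4% of all listed sites. 4933406I18Rik held 79 of them (39.9% of its sites), and the other lncRNA genes the remaining 79 of 250 (31.6%), close to the share over the whole table. Replicate 2 was the higher one at 92 of the 158 sites and replicate 1 at 66. With the column names read the other way the share was 23.0%, against 26.3% of all sites, so lncRNA sites were then below the whole table. The mean absolute difference per site was 13.2 points between technical and 13.9 points between biological replicates, close to each other and to the 13.5 points found for both over all listed sites. The 4 libraries spanned a median of 23.4 points per site, against 22.7 points. Across the 448 sites, Pearson's r between pairs of libraries ran from 0.559 to 0.672, and over all 8492 sites from 0.759 to 0.801; these are correlations across sites, which share reads and regions, and the lncRNA sites also spread over a narrower range of levels.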

How the data were processed

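RNA bisulfite libraries were made from poly(A) RNA with unmethylated lambda RNA added, per the labels' protocols. The authors deposited 1 table of sites with a methylation rate per library, a fraction from 0 to 1 per the file headers, shown here in percent. The submitters' processing notes name mm10 and GRCm38. The sources used here do not give the aligner, caller, coverage minimum or conversion rate.

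A column named K1rep2 was taken as biological replicate 1, technical replicate 2. The values cannot settle this order, so the reverse was an alternative. Members were found with the RefSeq gene table of GRCm38.p6. Technical replicates were averaged, then mean and SD taken over 2 biological replicates. Nothing says whether these came from separate animals, so spread between them may be technical. Wild-type levels were not analysed here.

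Every lncRNA gene with a site is named. The members, gene lists and tests were chosen with earlier results of these data known. Of 56 listed gene names, 55 matched the annotation. Functions were checked on simulated data. Figures were drawn with matplotlib 3.10.9, and values computed in Python 3.11.15 with pandas 2.3.3, numpy 2.4.6 and scipy 1.17.1.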

Additional observations from a re-analysis of the deposited data

Results flagged for a closer look

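Among 29 levels (of all lncRNA sites, of genes and of regions), 1 had a single library set apart, and chance alone marks about 1 in 20. The single site of Gm38740 read 16.7% in technical replicate 2 of biological replicate 1, while the other libraries lay between 11.1% and 12%. The 4 libraries span 5.56 points, and the gap is 0.84 of that. The cause was not tested.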

How the results depend on the processing

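The level of lncRNA sites, 39.4%, became 32.5% without clustered sites, 46.8% with at least 20% in every library, 34.9% as a median over sites, 33.6% with each region counted once, 35.2% with each gene counted once and 36.2% without the stretch of highest level. It was 38.4% to 40.4% with a replicate left out, which with 2 replicates stays within the SD by construction. It was 38.0% without 4933406I18Rik and 39.5% without the site shared with Zscan25. The difference from other listed sites stayed negative, from -14.7 points with at least 20% in every library to -6.28 without clustered sites. It was -16.3 points without the stretch of highest level. That alternative could only make it more negative, because high sites were taken from the lncRNA side alone. It was -13.7 points against protein-coding gene sites and -7.55 against sites outside gene spans. The number of lncRNA sites was 486 with spans extended by 1 kb, 293 with at least 20% in every library and 35 without clustered sites. Joining sites at up to 100 bases gave 35 regions and at up to 1000 bases 22. Sites whose biological replicates did not overlap numbered 103, not 158, with the column names read the other way. Without clustered sites such sites numbered 9 of 35 (25.7%), against 30.6% of all 536 isolated sites. Without clustered sites 7 of 9 genes moved by more than their SD, with changes from -16.9 to 14.0 points. These extremes, in C030034L19Rik and Gm31751, rest on 1 remaining site each. Gm45086 and Gm38740 had only isolated sites and so could not move. Reading the column names the other way changed no mean, and made the SD larger for 5 genes and smaller for 7. Counting each gene once, the comparisons with protein-coding and other sites, and leaving out the stretch were chosen after seeing the data. The splits of the 9 lncRNA regions with 10 or more sites, among them that of Gm34048 into its first and last 20 sites, were not planned. The causes of these shifts were not tested beyond the fewer sites each alternative keeps. No paired analysis was possible because all 4 libraries belong to the Tet2-deficient group. Without read numbers, the limits set by depth were not assessed.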
